A study of Mus musculus with 7 samples.

Results

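The 10 genes described here are Nfe2l2, which encodes the transcription factor NRF2, the NRF2-responsive genes Nqo1, Hmox1, Gclc, Gclm, Txnrd1, Srxn1 and Gpx2, and the enzymes Cat and Sod1, which remove peroxide and superoxide. They were chosen by symbol among the 14795 genes of a duodenal RNA sequencing table, to ask if an oxidative stress response accompanies the rise of metallothionein mRNA in Ppara I-KO mice. All 10 were found and all 10 passed the filter on low values. The samples were duodena of C57BL/6 male mice on 8-week high-fat diet (HFD), with 3 controls (Ppara lox/lox) and 4 intestinal knockouts (Ppara I-KO). Both groups carried loxP sites in both Ppara alleles, and the I-KO mice also carried a Cre transgene driven by the promoter of Villin, an epithelial gene, so that other cells of the duodenum keep Ppara. The controls were littermates without Cre, and all mice went without food from noon until the early evening and were then refed until midnight. The diet and the sex come from the study's methods, and the age at sampling is not given in the sources used here.

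In unstressed cells the adaptor KEAP1 holds NRF2 and hands it to a CUL3 ubiquitin ligase for degradation. Electrophiles and peroxides modify KEAP1, NRF2 then accumulates, pairs with small MAF proteins and binds antioxidant response elements near genes for glutathione synthesis, thioredoxin recycling and detoxification. Metallothioneins are small cysteine-rich proteins that bind zinc and copper, and their genes respond to metal through MTF1 and are also known to rise under oxidative stress. Because NRF2 is controlled mainly by the stability of the protein, the mRNA of its targets is the usual readout of its activity, and the protein was not measured here.

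The core of the antioxidant response element, TGACNNNGC, was searched on both strands of RefSeq promoter windows (assembly GRCm38.p6). Each window reached from 250 bases before to 50 bases after an annotated start. The term NRF2-responsive comes from the choice of genes by symbol and not from this search. Windows were found for 8 of the 10 genes, all but Hmox1 and Gclc, and 5 of these 8 genes held the core, in 5 of their 10 windows. Each match is printed 5′ to 3′ on the strand of the gene with 10 flanking bases on either side and the core in capitals. Where the core lies on the opposite strand, the capitals read as its reverse complement GCNNNGTCA, which is the case for all but Nfe2l2 and Mt2.
Nfe2l2, chr2:75704885-75704913, minus strand: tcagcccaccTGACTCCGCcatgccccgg
Gclm, chr3:122245413-122245441, plus strand: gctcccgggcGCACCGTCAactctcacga
Txnrd1, chr10:82859104-82859132, plus strand: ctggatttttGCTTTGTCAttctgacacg
Srxn1, chr2:152105542-152105570, plus strand: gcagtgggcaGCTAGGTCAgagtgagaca
Sod1, chr16:90220696-90220724, plus strand: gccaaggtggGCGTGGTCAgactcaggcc
Mt2, chr8:94172529-94172557, plus strand: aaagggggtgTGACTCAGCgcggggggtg

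Of all 32851 promoter windows, 12.4% hold these letters, so a match is a description of the window and not a binding site. The Txnrd1 match lies in 1 of 3 windows of this gene, and the Srxn1 match lies after the annotated start. No match was found in the windows of Nqo1, Gpx2, Cat, Mt1 and Mt4. Bases outside the windows were not searched, so this does not show that a gene lacks the element. The letters TGCNCNC, a loose form of the core of the metal response element, were found 3 times in the window of Mt1, 6 times in that of Mt2 and 5 times in that of Mt4. They were also found in windows of 5 of the 8 genes with a window (6 of 10 windows), and in 51.0% of all windows, so these matches are not binding sites either.

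The values are normalised counts as deposited by the authors, in CPM, read counts relative to a library size that the authors had adjusted. About 20700000 to 25900000 reads per library lay on the listed genes, an estimate from the steps between low values, which match whole reads less closely in 5 of the 7 libraries. The enterocyte markers were high in every library, with a mean of 1380 CPM for the lowest of 10 (Epcam), and none of the 6 duodenum markers was at 0. The duodenum markers summed to 442 CPM in lox/lox replicate 3, against 530 to 681 CPM in the other 6 libraries. Cybrd1 had 16.9 CPM there, against 56.1 to 78.5 CPM elsewhere, and Slc40a1 had 49.3 against 103 to 162 CPM. Pdx1 and Gata4 were also lowest in that library, whereas Gata6 and Onecut2 were not. Ppara itself had 53.4, 49.3 and 63.2 CPM in the lox/lox libraries and 33.0, 40.6, 47.5 and 69.9 CPM in I-KO replicates 1 to 4, with a log2 fold change of -0.25 (SE 0.22, adjusted p = 0.954 by limma). The library labelled I-KO replicate 4 thus lay above all 3 lox/lox libraries, and a total per gene, which also counts reads outside the floxed part and from cells without Cre, does not check the deletion. In I-KO replicate 1, pancreatic acinar markers summed to 438 CPM, against 29.9 to 104 CPM in the other 6 libraries. Values are therefore also given without these libraries where that matters.

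None of the 10 antioxidant genes differed between the genotypes at an adjusted p of 0.05 by limma with Benjamini-Hochberg adjustment, over the 13399 genes tested. Over all genes, 0.0299% passed this threshold. At an unadjusted p under 0.05 there was 1 of the 10, Sod1, where 4.74% of all genes were found. Of the 10 genes, 4 had a positive and 6 a negative fold change, with a median log2 fold change of -0.03, beside 0.00 for all genes. The 95% confidence intervals lay within a 2-fold change in either direction for 9 of the 10 genes, all but Gpx2, and within 0.5 on the log2 scale for 6. Over all genes tested these shares were 98.6% and 84.3%. The number of mice, 3 and 4, limits this precision. In whole duodenum, fewer cells of a type and less RNA per cell cannot be told apart.

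**Figure D1:**
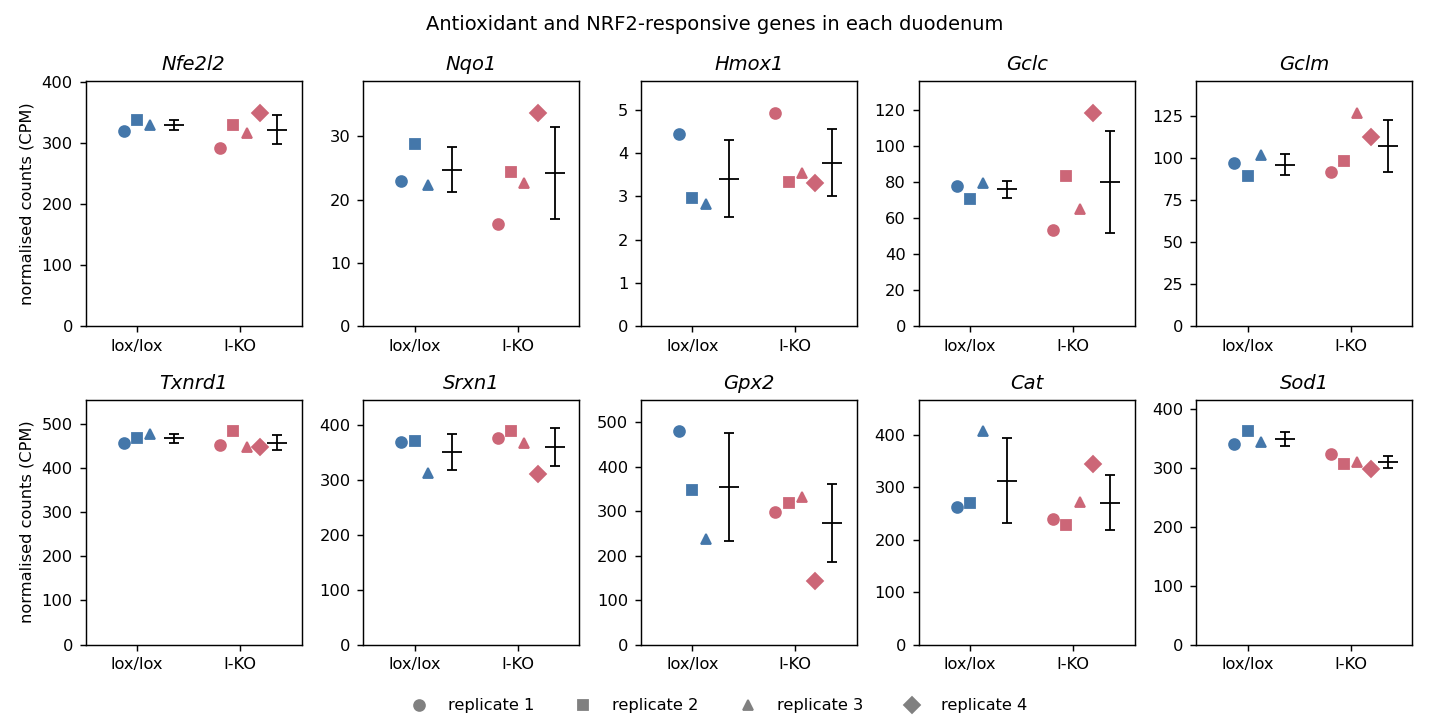
Normalised counts (CPM, linear axes from 0) of the 10 genes in each of the 3 Ppara lox/lox (blue) and 4 Ppara I-KO (red) duodena, with marker shapes for replicate numbers and the mean ± SD beside each group. The groups overlap in 9 panels, and in the panel of Sod1 all 4 I-KO points, from 298 to 323 CPM, lie below the lox/lox points, from 340 to 362 CPM.

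Nfe2l2 (chr2:75675513-75704641, mm10) had 321, 338 and 330 CPM in the lox/lox libraries and 293, 331, 316 and 350 CPM in I-KO replicates 1 to 4. The I-KO values lay on both sides of the lox/lox values. Between the groups the log2 fold change was -0.03, with a 95% confidence interval from -0.23 to 0.16. Nothing about the level of NRF2 protein follows from this.

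The 11 genes listed around the control of NRF2 were as even. They comprise Keap1, the ubiquitin ligase subunits, the small MAF partners, the competing repressor Bach1, the related gene Nfe2l1 and others. By limma 0 of the 11 passed at the adjusted threshold (0.0299% of all genes) or at an unadjusted p under 0.05 (4.74% of all genes). Their median log2 fold change was 0.03, and all 11 confidence intervals lay within 0.5 on the log2 scale. The level of Keap1 averaged 69.7 ± 4.33 CPM (SD, n = 3) for lox/lox mice, and 71.3 ± 3.22 CPM (SD, n = 4) for I-KO mice. The extremes were Sqstm1, which encodes the KEAP1-binding autophagy adaptor p62, at 0.15, and the ligase subunit Rbx1 at -0.10 on the log2 scale. Both were nearer to 0 without 1 library, Sqstm1 at 0.041 without lox/lox replicate 1 and Rbx1 at -0.030 without lox/lox replicate 2.

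Among the targets, Nqo1 (chr8:107388225-107403206), a quinone reductase that is a standard readout of NRF2 activity, had 23.0, 28.8 and 22.4 CPM in lox/lox and 16.1, 24.4, 22.7 and 33.7 CPM in I-KO libraries. The lowest and the highest of all 7 values were both I-KO libraries, replicates 1 and 4. Its log2 fold change was -0.06 (SE 0.21, 95% confidence interval -0.54 to 0.41, adjusted p = 0.987 by limma). It turned to 0.11 without I-KO replicate 1 and was -0.23 without I-KO replicate 4.

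Hmox1 (chr8:75093621-75100589), heme oxygenase 1, which breaks down heme and is induced by many stresses, was low in the duodenum. It had 4.44, 2.96 and 2.83 CPM in lox/lox and 4.93, 3.34, 3.55 and 3.31 CPM in I-KO libraries. In each group replicate 1 stood above the rest, and the other libraries lay between 2.83 and 3.55 CPM. A log2 fold change of 0.12 had a 95% confidence interval from -0.23 to 0.48, and it ranged from 0.015 without I-KO replicate 1 to 0.28 without lox/lox replicate 1. Macrophages also express Hmox1. Of 8 macrophage markers, 7 had a positive fold change (87.5%, beside 50.6% of all genes tested), all but Cd163, at -0.37 on the log2 scale. The markers summed to 212 to 285 CPM in lox/lox and 273 to 333 CPM in I-KO libraries, with no marker at 0. The part of macrophages in the Hmox1 values was not tested. The library with the highest marker sum was also that with the highest Hmox1, whereas the library with the lowest sum, lox/lox replicate 1, had the second highest Hmox1.

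Gclc and Gclm encode the catalytic and the modifier subunit of glutamate-cysteine ligase, the first enzyme of glutathione synthesis. Gclc (chr9:77754535-77794485) had 77.6, 70.7 and 79.5 CPM in lox/lox and 53.6, 83.1, 65.0 and 118 CPM in I-KO libraries. The lox/lox values lay close together and inside the range of the I-KO values. Gclm (chr3:122245557-122270732) had 97.3, 89.2 and 102 CPM in lox/lox and 91.7, 98.3, 127 and 112 CPM in I-KO libraries. Here the 2 highest values, in I-KO replicates 3 and 4, were above the lox/lox range, but the groups overlapped. The log2 fold changes were 0.01 (95% confidence interval -0.51 to 0.53) for Gclc and 0.15 (-0.12 to 0.42) for Gclm. Leaving out I-KO replicate 3 brought Gclm to 0.064, and leaving out replicate 1 to 0.22. That of Gclc was -0.19 without I-KO replicate 4 and -0.02 with scaling by column totals. Exons of Gclm overlap those of Gm6061 on the same strand and of Gm17494 on the other strand, neither of which is listed in the table.

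The ratio of Gclc to Gclm CPM was nearly the same in the 3 lox/lox libraries, at 0.798, 0.792 and 0.780. In I-KO replicates 1 to 4 it was 0.585, 0.845, 0.512 and 1.05. The mRNAs of the subunits thus varied separately among the I-KO mice, and the direction differed between the mice.

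Txnrd1 (chr10:82833951-82897712), cytosolic thioredoxin reductase, and Srxn1 (chr2:152105516-152111376), sulfiredoxin, which repairs overoxidized peroxiredoxins, belong to the thioredoxin branch of the response. Txnrd1 had 457, 470 and 479 CPM in lox/lox and 454, 484, 448 and 448 CPM in I-KO libraries. Its coefficient of variation was 2.28% in lox/lox and 3.74% in I-KO, and only 2.0% of all genes tested had a smaller residual SD within groups. Its log2 fold change of -0.03 accordingly had a narrow 95% confidence interval, from -0.20 to 0.14. Srxn1 had 368, 370 and 313 CPM in lox/lox and 376, 388, 366 and 311 CPM in I-KO libraries. In each group 1 library lay well below the rest, lox/lox replicate 3 and I-KO replicate 4, and the log2 fold change was 0.04 (95% confidence interval -0.20 to 0.28).

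Gpx2 (chr12:76792333-76795554), the gastrointestinal glutathione peroxidase, varied the most. It had 479, 347 and 237 CPM in lox/lox and 297, 319, 332 and 143 CPM in I-KO libraries. The I-KO replicates 1 to 3 lay within the lox/lox range and replicate 4 far below it. Gpx2 had a log2 fold change of -0.39 (SE 0.32, 95% confidence interval -1.12 to 0.33, adjusted p = 0.954 by limma), which was -0.11 without I-KO replicate 4 and -0.65 without lox/lox replicate 3. A residual SD as large as that of Gpx2 was found in few genes, at percentile 99.0 of all genes tested.

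Cat (chr2:103453849-103485160), the peroxisomal catalase, had 262, 270 and 407 CPM in lox/lox and 239, 228, 272 and 344 CPM in I-KO libraries. It was highest in lox/lox replicate 3 and, within I-KO, in replicate 4, the libraries in which Gpx2 was lowest. For Cat the log2 fold change was -0.20 (95% confidence interval -0.62 to 0.23) and turned to 0.01 without lox/lox replicate 3. The ratio of Cat to Gpx2 CPM was 0.547, 0.779 and 1.72 in lox/lox and 0.805, 0.715, 0.820 and 2.40 in I-KO libraries. Gpx2 is known to be strongest in crypt cells. The crypt markers summed to 1748 CPM in lox/lox replicate 3 and 2432 CPM in I-KO replicate 4, within the range of the other libraries, from 1118 to 2741 CPM, and none of the 10 was at 0. Lyz1 alone made up 1185 and 1643 CPM of these sums. The part of crypt cells in the Gpx2 values was not tested.

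Sod1 (chr16:90220754-90226329), the copper and zinc dependent superoxide dismutase of the cytosol, was the only gene of the 10 whose groups did not overlap. It had 340, 362 and 343 CPM in lox/lox and 323, 307, 310 and 298 CPM in I-KO libraries. Sod1 averaged 348 ± 11.5 CPM (SD, n = 3) for lox/lox mice, and 309 ± 10.5 CPM (SD, n = 4) for I-KO mice, a difference of -11.2%. The log2 fold change was -0.17 (SE 0.08, 95% confidence interval -0.34 to -0.001) and did not pass the threshold over all genes (adjusted p = 0.954 by limma). The exact two-sided permutation test gave p = 0.0286, the smallest that the 35 splits of 7 libraries allow. Of all genes tested, 6.19% had groups without overlap, so 1 of 10 is near this background. Leaving out single libraries kept the difference between -0.19 and -0.14 on the log2 scale, but the unadjusted p was under 0.05 by limma only without I-KO replicate 1, and not when any 1 of the other 6 libraries was left out. Like Txnrd1, Sod1 varied little within groups, with only 2.4% of genes below its residual SD.

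**Figure D2:**
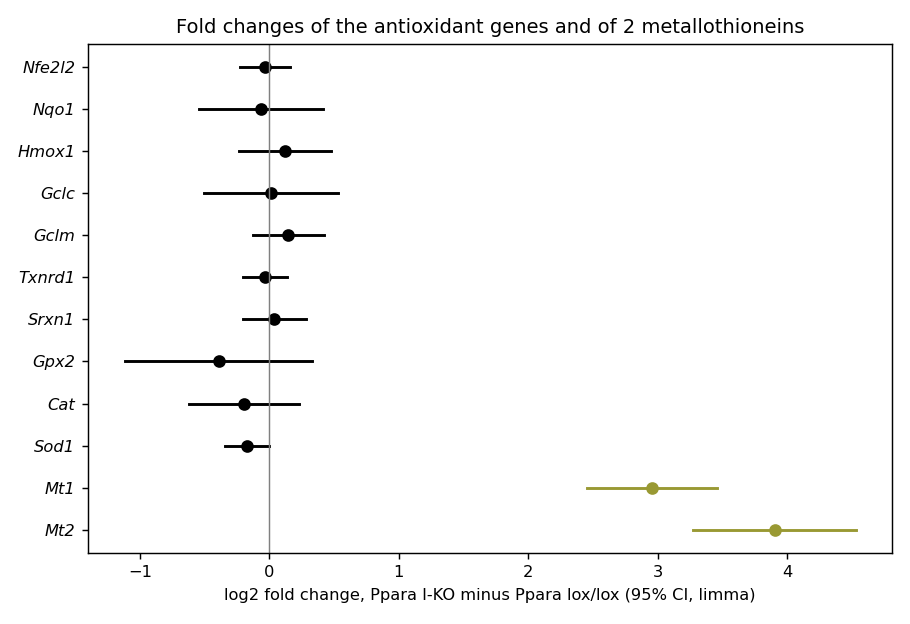
Log2 fold change of Ppara I-KO against Ppara lox/lox (points) with the 95% confidence interval by limma (lines), for the 10 genes in black and for the metallothioneins Mt1 and Mt2 in olive. The 10 points lie between -0.39 and 0.15, and those of Mt1 and Mt2 at 2.96 and 3.90.

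In the same libraries Mt1 had 41.7, 39.4 and 21.7 CPM in lox/lox and 322, 251, 269 and 219 CPM in I-KO, and Mt2 had 6.22, 5.83 and 2.12 CPM in lox/lox and 94.8, 79.4, 83.5 and 62.6 CPM in I-KO. Neither pair of groups overlapped, and the log2 fold changes were 2.96 (SE 0.22) for Mt1 and 3.90 (SE 0.28) for Mt2, both with an adjusted p under the threshold by limma (0.00147 and 0.00146). All 3 lox/lox libraries list Mt4 at 0, and the I-KO libraries list it at 1.94 to 2.95 CPM. Mt4 thus passed the filter on low values only through the I-KO group. With a filter in all 7 libraries it was not tested, and its call adds no support to the rise of Mt1 and Mt2. Mt3 was at most 0.54 CPM and was not tested. Within I-KO, Mt1 and Mt2 were highest in replicate 1, the library with the lowest Nfe2l2, Nqo1 and Gclc, and lowest in replicate 4, the library with the highest Nfe2l2, Nqo1 and Gclc. With 4 mice this is a description of the order and was not tested.

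Between the I-KO mice, Nfe2l2, Nqo1 and Gclc ranked the libraries in the same order, from replicate 1 over replicates 3 and 2 to replicate 4. This order, which was chosen from the data, was shared by 8.04% of all genes tested. The range within I-KO was 2.09-fold for Nqo1 and 2.21-fold for Gclc, but 1.19-fold for Nfe2l2. Ppara was also lowest in replicate 1 and highest in replicate 4. The residual SD within groups was at percentile 95.7 for Nqo1, 97.1 for Gclc and 93.2 for Cat, so that 4 of the 10 genes, with Gpx2, varied more than 93.2% of all genes or an even larger share. It was at percentile 16.8 for Nfe2l2, 48.4 for Srxn1, 63.3 for Gclm and 85.5 for Hmox1.

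**Figure D3:**
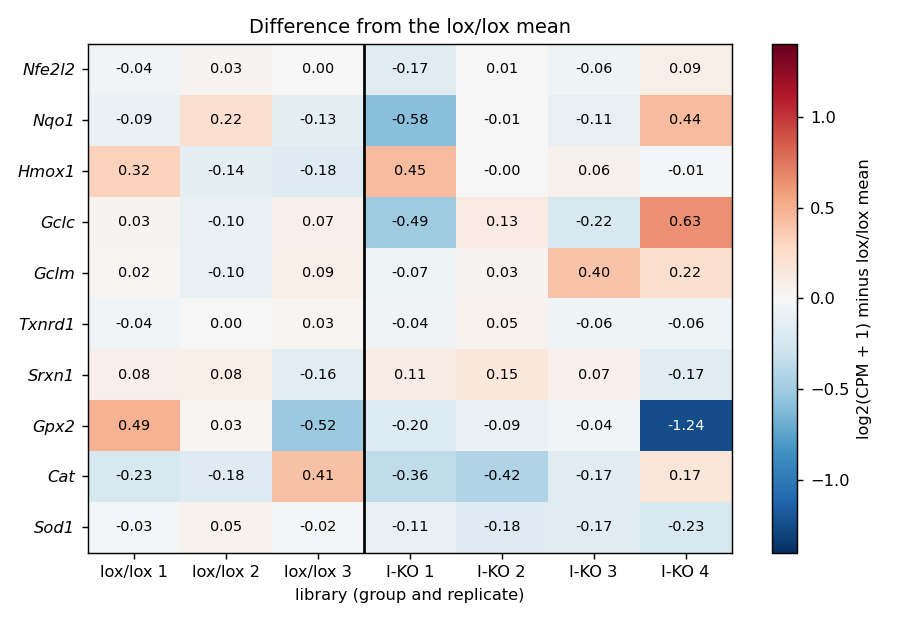
Difference of log2(CPM + 1) from the mean of the Ppara lox/lox libraries, for each gene (vertical) in each library (horizontal), with red above and blue below that mean and the difference printed in each cell. The deepest blue is Gpx2 in I-KO replicate 4 (-1.24), Sod1 is below the mean in all 4 I-KO libraries, and Nqo1 and Gclc go from blue in I-KO replicate 1 to red in replicate 4.

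Levels were compared between genes per kilobase of annotated exon. By this measure Srxn1 (124 ± 11.6 CPM per kb, SD, n = 3), Cat (120 ± 31.1) and Gpx2 (110 ± 37.6) were highest, and their ranges overlapped. The range of Gpx2, from 73.6 to 149, also held those of the next genes. Sod1 (87.8 ± 2.89) and Nfe2l2 (86.8 ± 2.20) overlapped as well, and Txnrd1 followed at 66.1 ± 1.51. Gclc (20.2 ± 1.24) lay just above Nqo1 (15.9 ± 2.28) and Gclm (15.3 ± 1.02), of which the last 2 overlapped, and Hmox1 was lowest at 1.95 ± 0.51 CPM per kb. In I-KO duodena Gpx2 at 84.7 CPM per kb and Sod1 at 77.9 ranked just below Nfe2l2, with overlapping ranges. The length joins the exons of all transcripts of a gene and understates the level of genes with long rare transcripts. For Gpx2 it is 3222 bases, which covers the gene from start to end, and for Sod1 it is 3970 bases. The order given here rests on these lengths and may differ from the order of transcript levels.

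Of a wider list of 36 other NRF2 targets, 34 were in the table and tested, all but Aldh3a1 and Cyp2a5. Of these, 19 had a positive and 15 a negative fold change, around a median of 0.03 on the log2 scale, and 6 of 34 had groups without overlap (17.6%, beside 6.19% of all genes). By limma 1 was called, Me1, malic enzyme 1, which is also a PPARα target and fell by 1.28 on the log2 scale (SE 0.15, adjusted p = 0.0456). This call was lost when lox/lox replicate 1 or 3 or I-KO replicate 1, 2 or 3 was left out, with an adjusted p between 0.132 and 0.243 by limma, while the log2 fold change stayed between -1.28 and -1.18. The largest fold change was that of Gsta1, a glutathione S-transferase, with 4.34, 81.4 and 4.44 CPM in lox/lox and 75.4, 64.5, 69.8 and 5.70 CPM in I-KO libraries. Its values fell into a low and a high range in both groups, and Gsta1 has near-identical family members with which reads may be shared. Its log2 fold change of 1.55 (SE 1.12) lay between 0.89 and 2.86 when single libraries were left out.

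At an unadjusted p under 0.05 by limma there were 6 of the 34 targets (17.6%, beside 4.74% of all genes), 3 higher and 3 lower. Besides Me1 these were chosen for naming after their values were seen. Akr1b8, an aldo-keto reductase, had 4.64 to 7.94 CPM in lox/lox and 2.44 to 3.89 CPM in I-KO libraries, a log2 fold change of -0.82 (SE 0.18, adjusted p = 0.572 by limma). Fth1, the ferritin heavy chain that stores iron, had 2479 to 3219 CPM in lox/lox and 3426 CPM or more in every I-KO library (log2 fold change 0.30, SE 0.11). The others were Gsta4 at 0.42 and Ptgr1 at 0.22, and the cystine transporter Slc7a11 at -0.30 on the log2 scale. The value for Gsta4 was 0.24 without lox/lox replicate 3 and 0.64 without lox/lox replicate 2, and that of Fth1 was 0.20 without lox/lox replicate 3. None of these 5 passed the adjusted threshold, and they went in both directions.

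The 24 other antioxidant enzymes include peroxiredoxins, glutathione peroxidases, glutaredoxins and methionine sulfoxide reductases. By limma 0 of the 24 had an unadjusted p under 0.05 (4.74% of all genes) and 0 passed the adjusted threshold (0.0299% of all genes). Of these, 17 had a positive and 7 a negative fold change, between -0.16 (Msrb2) and 0.21 (Glrx) on the log2 scale, with a median of 0.10. Of 15 genes whose enzymes make superoxide or peroxide, or assist them, 12 could be tested. Again 0 of the 12 passed by limma at either threshold, beside the same shares of all genes. Their extremes were Duoxa2, the maturation factor of the epithelial oxidase DUOX2, at -0.60 (95% confidence interval -1.66 to 0.46) and the polyamine oxidase Paox at 0.28 (-0.37 to 0.92). Both rested on single libraries, since Duoxa2 was at -0.13 without I-KO replicate 4 and Paox at -0.093 without lox/lox replicate 3.

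**Figure D4:**
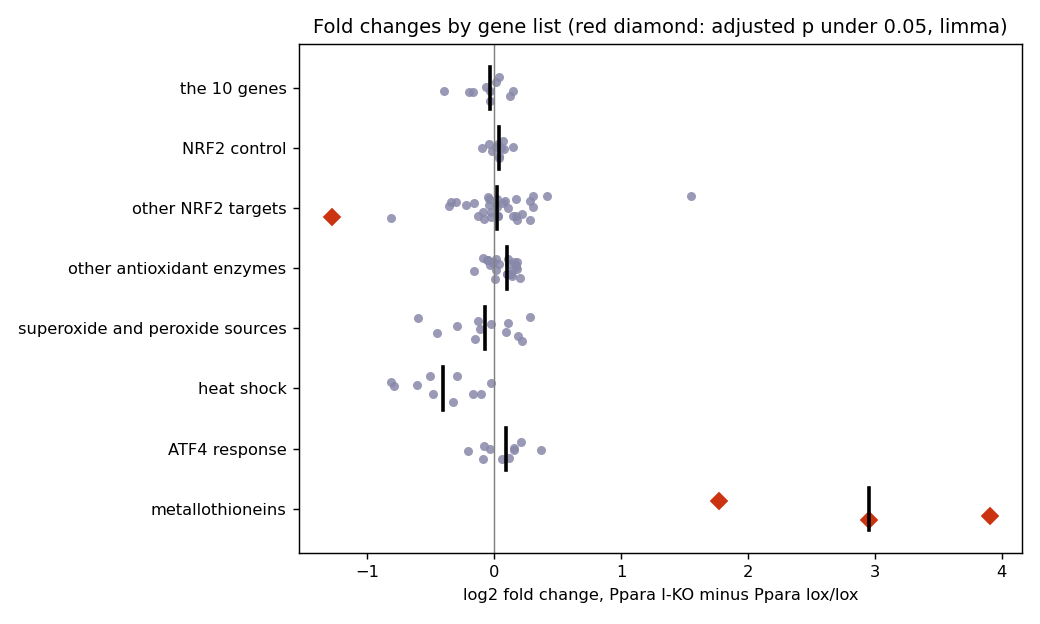
Log2 fold change of Ppara I-KO against Ppara lox/lox for each tested gene of 8 lists (points, with a random vertical offset), the median of each list (black line) and genes with an adjusted p under 0.05 by limma (red diamonds). The 10 genes and the NRF2 lists centre near 0, 10 of 10 heat shock genes are below 0, and the red diamonds are Me1 and 3 metallothioneins. Of these, Mt4 is listed at 0 in lox/lox. It passed the filter on low values only through the I-KO libraries, and its plotted value depends on the pseudocount.

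Among other stress responses, all 10 heat shock genes had a negative fold change, with a median log2 fold change of -0.40, although that of Hspb1, at -0.03, turned positive without lox/lox replicate 3 or without I-KO replicate 3 or 4. By limma 0 passed the adjusted threshold, and 3 of 10 had an unadjusted p under 0.05 (30.0%, beside 4.74% of all genes), the chaperone genes Hsp90aa1 (-0.48), Hspe1 (-0.32) and Hspd1 (-0.29). When single libraries were left out, the unadjusted p by limma reached 0.057 for Hsp90aa1, 0.107 for Hspe1 and 0.152 for Hspd1. The lowest fold change was that of Hspa1b at -0.82 (95% confidence interval -1.66 to 0.03), which was -0.40 without lox/lox replicate 1. Of 10 tested genes of the ATF4 response, 6 were higher and 4 lower, and 1 of the 10 had an unadjusted p under 0.05 (again beside 4.74% of all genes), Trib3, at 0.37 on the log2 scale. The lowest of them was Phgdh at -0.20.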

How the data were processed

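The authors deposited 1 table for the 7 duodenal libraries, a signal in CPM, that is, read counts per gene relative to an adjusted library size. Per the labels, stranded mRNA libraries were sequenced with 100 base single reads, and the submitters' processing notes name FastQC 0.11.2, TopHat2 2.0.13, Picard 1.80, HTSeq 0.6.1, edgeR and mm10. The strand setting of counting is not given in the sources used here. Groups came from the labels. Low values were within 0.1 of whole reads for 95% of values in only 2 libraries, so count tests were not run.

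With limma 3.58.1 (R 4.3.3), log2(CPM + 1) was fitted by genotype for the 13399 genes above 1 CPM in 3 or more libraries, with two-sided p-values and Benjamini-Hochberg adjustment over all genes. Single genes were compared by exact permutation of the 35 splits. The fit was tested on simulated data. A run with 0 changed genes gave 0 false calls, and the other runs had 200 changed genes each. At the adjusted threshold the fit recovered 26.5% of changes of 0.5 on the log2 scale, with 1 false call. For changes of 1 it recovered 93.0%, with 8 false calls. Both shares hold for 200 changed genes, where the adjusted threshold is easier to reach than in the measured data, with 4 genes called. They likely overstate the recovery there. Akr1b8, for one, was not called at a log2 fold change of -0.82 (adjusted p = 0.572 by limma). On the estimated read counts, replicates differed by more than sampling noise (chi-square per degree of freedom at least 13.9). None thus looked like the same library sequenced again, but separate preparations from 1 mouse would not be told apart in this way. The labels number the libraries as biological replicates. Replicate numbers were not used to pair the samples in this fit.

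The 10 genes, the other lists and the tests were chosen with earlier results of these data known. The text names all 10 genes and the metallothioneins. Of the other lists it names genes past the threshold, or otherwise up to 3 with the lowest unadjusted p under 0.05, and the extremes. Akr1b8, Fth1, Gsta4, Ptgr1 and Slc7a11 fall outside this rule and were chosen after their values were seen. Marker lists are given mainly as sums and counts. The smooth muscle markers summed to 1640 to 1920 CPM in lox/lox and 1650 to 2160 CPM in I-KO, and of 7 red blood cell markers 2 were in the table, at 12.0 CPM or less together. Gene positions are from GENCODE M21 and promoter windows from RefSeq. Alternatives were other pseudocounts, filters, scalings, variance models, the replicate block and leaving out each library. Analyses used Python 3.11.15 with pandas 2.3.3 and numpy 2.4.6, and figures matplotlib 3.10.9.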

Additional observations from a re-analysis of the deposited data

Results flagged for a closer look

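In 5 of 51 quantities searched, the highest or lowest of the 4 I-KO libraries was far from the other 3, with a gap to the nearest above Dixon's 95% critical share of the group's range, where chance alone would flag about 2.55. The group of 3 lox/lox libraries was not searched. Hmox1 was flagged for I-KO replicate 1 (gap 0.852 of the range), with 4.93 CPM, where the remaining I-KO libraries had 3.31 to 3.55 CPM. Fth1 was flagged for the same library (gap 0.893), with 3914 CPM against 3426 to 3479 CPM. The summed pancreatic acinar markers were also highest in that library (gap 0.954), with 438 CPM against 29.9 to 48.8 CPM. Gsta1 was flagged for I-KO replicate 4 as the lowest (gap 0.843), with 5.70 CPM against 64.5 to 75.4 CPM, although 2 lox/lox libraries were as low. The ratio of Cat to Gpx2 was highest in I-KO replicate 4 (gap 0.938), at 2.40 against 0.715 to 0.820.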

How the results depend on the processing

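The count of the 10 genes past the adjusted threshold was 0 under each of 17 alternatives by limma. Of 170 fold changes of these genes under the alternatives, 160 kept their sign, and 5 genes never turned. The count at an unadjusted p under 0.05, 1 in the report (Sod1), was 0 with no filter and with a pseudocount of 0.5, and 0 to 1 without single libraries. With the replicate block it was again 1, but this was Cat (log2 fold change -0.32) and not Sod1 (-0.15). The 1 call in the NRF2 lists, Me1, became 0 with column totals, a pseudocount of 0.1 or 0.5 and the replicate block, and 0 to 1 without single libraries. Over all genes, 4 calls became 9 with an intensity trend and robust prior and 12 with sample quality weights. Without single libraries the log2 fold change ranged from -0.0735 to 0.0112 for Nfe2l2, -0.23 to 0.11 for Nqo1, -0.19 to 0.18 for Gclc, -0.0405 to 0.11 for Srxn1, -0.32 to 0.0065 for Cat, -0.22 to 0.13 for Hspb1 and -0.093 to 0.58 for Paox. Column totals turned Gclc to -0.0236. With the replicate number as a block, which leaves out I-KO replicate 4, Gclc was -0.19 and Hspb1 was 0.13, and 3 genes were called. The deviations of same-numbered libraries correlated between -0.01 and 0.18, and those of libraries with different numbers between -0.355 and 0.283. These values show no pairing by number, and with so few libraries they cannot exclude one. The causes were not tested. How far depth limits precision at the few CPM of Hmox1 was not tested.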
